A study of Homo sapiens with 8 samples.

Results

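The genes described here are known targets of the xenobiotic sensors PXR and AhR together with the main drug exporters of the cell membrane, measured here in the human astrocytoma cell line U373. The list holds 10 genes, chosen by name with earlier results of these data known. They are the exporters ABCB1, ABCC1, ABCC2, ABCC3 and ABCG2, the cytochrome P450 genes CYP3A4, CYP3A5, CYP1A1 and CYP1B1, and NR1I2, which encodes PXR. Of these, 9 were measured among 18417 genes in all, each by 1 probe set that the platform annotation pairs with that gene alone. NR1I2 is not analysed here.

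The data are 8 Affymetrix whole-transcript expression arrays of total RNA, with 2 arrays in each of 4 groups. After 24 h in medium with 5% hormone-free serum, the cells received 10 nM progesterone, 1 µM RU-486 (mifepristone, an antagonist of the progesterone and glucocorticoid receptors), a combination of both steroids at these doses, or vehicle, each for 12 h. The sample descriptions write RU-484 where the titles write RU-486, which is read here as the same drug. The replicates are called biological, but separate cultures are not stated, so the spread behind each p-value is that between these arrays and may be technical.

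PXR is a nuclear receptor that binds many drugs and steroids, mifepristone and rifampicin among them in humans, pairs with RXR and switches on CYP3A4, ABCB1 and ABCC2 in liver and gut. AhR is a cytoplasmic sensor of planar aromatic compounds that moves to the nucleus, pairs with ARNT and induces CYP1A1 and CYP1B1. The exporters use ATP to pump drugs and conjugates out of the cell. In the brain ABCB1 and ABCG2 are best known from the endothelium of the blood-brain barrier, and in tumours all 5 have been studied for drug resistance.

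Replicates lay close together in 3 groups and farther apart after progesterone. Over all genes, replicate differences had an SD of 0.35 log2 units after progesterone, 0.16 after RU-486, 0.17 after the combination and 0.18 after vehicle. The model pools the spread of the groups gene by gene, so SE and p may be too small for progesterone against vehicle. They may be too large for RU-486 and for the combination against vehicle. Comparisons that weigh all 4 groups equally use the average spread, though their p can still be affected. The 12 astrocyte and glioma markers fitted the label in part: 9 lay above the background defined next, among them vimentin (VIM, 13.37) and S100B (9.59), while the astrocyte water channel AQP4 lay at 4.19. Of 8 neuron markers 6 lay above this background as well, so this share does not set astrocytes apart from neurons. Endothelial markers and microglia and leukocyte markers each had 2 of 8 above it, and oligodendrocyte and enterocyte markers each 2 of 7. Of 7 measured markers of hepatocytes, in which PXR and its targets are best known, 2 lay above this background, APOA1 (7.57) and SERPINA1 (7.28). ALB, the gene of serum albumin, was at 4.44. In such bulk RNA, fewer cells that express a gene and less RNA per cell cannot be told apart.

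The 9 genes split into 3 bright and 6 dim ones. Probe sets differ in brightness at equal RNA, so each gene was set not against the others but against 341 olfactory receptor genes, taken as a background because few of them are active in other tissues. The median of these was 4.64 log2 units, 95% of them lay below 6.22, and the highest was at 6.996. ABCC1, ABCC2 and ABCC3 each lay above all 341 on every array. ABCB1, ABCG2, CYP3A4, CYP3A5, CYP1A1 and CYP1B1 all had means below 6.22, inside the range of this background.

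**Figure D1:**
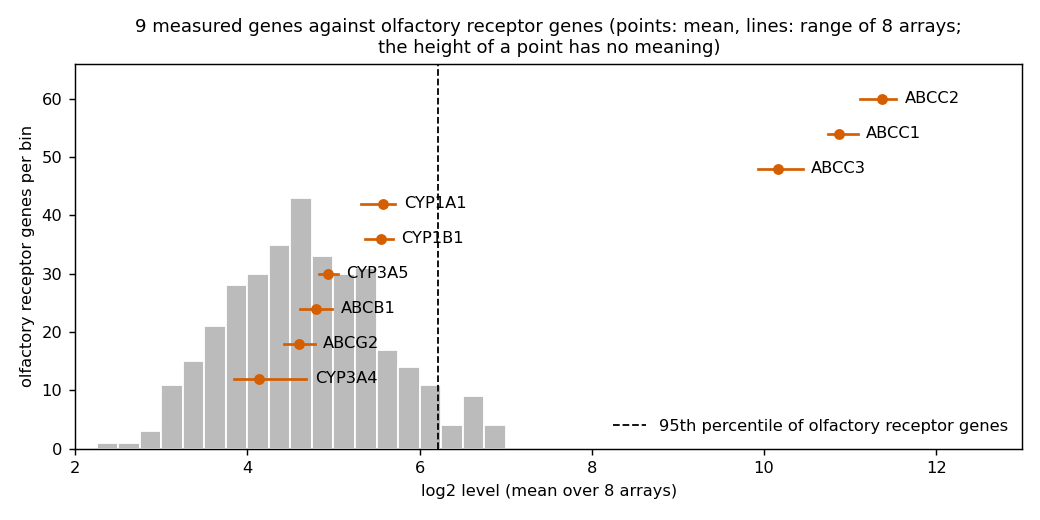
The grey histogram counts olfactory receptor genes by mean log2 level over 8 arrays (x axis, bins of equal width), and the dashed line is their 95th percentile, 6.22. Orange points are the means of the 9 measured genes and orange lines their ranges over the 8 arrays; 3 exporters lie right of the whole histogram and the other 6 genes lie within it.

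Among the exporters, ABCC3, ABCC2 and ABCC1 had the brightest signals against background and were higher where RU-486 was present, without passing the test over all genes. ABCC3, an exporter of bile acids and glucuronide conjugates, averaged 10.33 log2 units on the arrays with the drug and 10.00 on those without. It lay at 10.04 and 10.01 on the progesterone arrays, at 10.29 and 10.26 on the RU-486 arrays, at 10.45 and 10.31 on the combination arrays and at 10.00 and 9.93 on the vehicle arrays. All 4 arrays with RU-486 lay above all 4 without it. The difference, RU-486 present minus absent with progesterone balanced on both sides, was 0.33 ± 0.06 log2 units (SE), or 1.26-fold with a 95% interval of 1.14 to 1.38. Its unadjusted p was 0.000696, rank 53 of 18417, and the limma adjusted p was 0.235, which did not pass.

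The ABCC3 difference was also formed within each replicate number. Within replicate number 1, RU-486 exceeded vehicle by 0.29 and the combination exceeded progesterone by 0.41. Within replicate number 2 the same differences were 0.33 and 0.31. For RU-486 alone against vehicle the fit gave 0.31 ± 0.08 (limma adjusted p = 1.00), and for the combination against vehicle it gave 0.41 ± 0.08 (limma adjusted p = 0.374), or 1.33-fold. With each array left out in turn the difference for RU-486 stayed between 0.30 and 0.37. The limma adjusted p fell under 0.05 in 1 of these fits, the one without progesterone replicate 1 (0.0408), in which 998 genes of the whole array passed as well.

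ABCC2, an exporter of conjugated bilirubin and drug conjugates on the apical side of liver and gut cells, differed by 0.22 ± 0.07 between arrays with and without RU-486 (limma adjusted p = 0.421). Its levels were 11.30 and 11.12 with progesterone, 11.37 and 11.48 with RU-486, 11.53 and 11.52 with the combination and 11.33 and 11.27 with vehicle. The arrays with the drug again lay above all those without it, but RU-486 replicate 1 and vehicle replicate 1 were only 0.036 apart. Progesterone replicate 2 was the lowest array.

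ABCC1, an exporter of glutathione conjugates and many cytotoxic drugs found in most tissues, differed by 0.15 ± 0.06 (limma adjusted p = 0.438). It lay at 10.87 and 10.79 with progesterone, at 10.87 and 10.88 with RU-486, at 11.09 and 10.96 with the combination and at 10.75 and 10.79 with vehicle. Both combination arrays were higher than the other 6, and RU-486 overlapped with progesterone. The combination exceeded vehicle by 0.25 ± 0.08 (limma adjusted p = 0.374), where the median over all 18417 genes was itself 0.07.

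**Figure D2:**
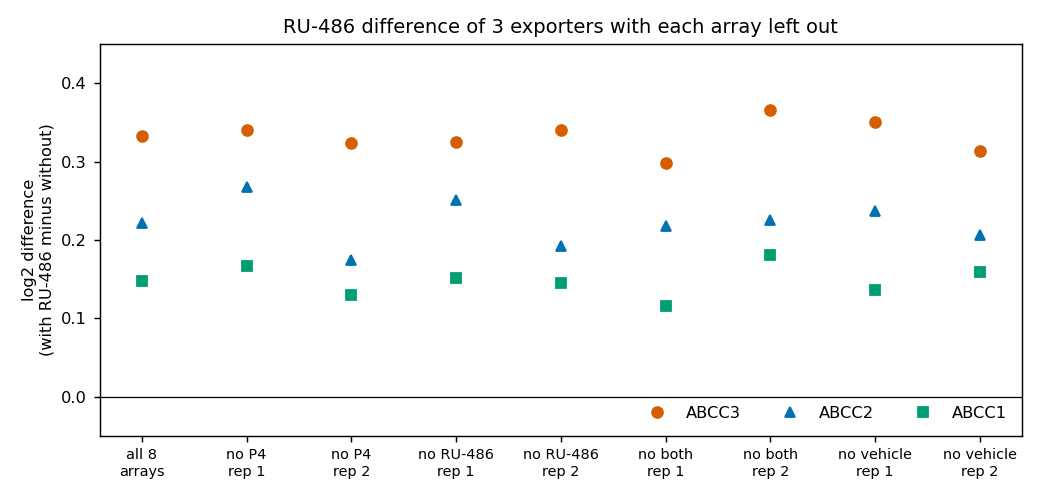
Points are the log2 difference between arrays with and without RU-486 (y axis) for 3 exporters, from all 8 arrays and with each array left out in turn (x axis; P4 is progesterone, both is the combination). ABCC3 stays between 0.30 and 0.37, ABCC2 between 0.17 and 0.27 and ABCC1 between 0.12 and 0.18.

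ABCB1 and ABCG2, the exporters best known from the blood-brain barrier, were dim. ABCB1, or P-glycoprotein, had a mean of 4.79 ± 0.12 (SD, n = 8), and 57.2% of the olfactory receptor genes lay below it. Its values were 4.88 and 4.81 with progesterone, 4.99 and 4.81 with RU-486, 4.75 and 4.68 with the combination and 4.61 and 4.83 with vehicle. The vehicle pair spanned both combination arrays and the second array of progesterone and of RU-486. ABCB1 differed by 0.18 ± 0.11 between RU-486 and vehicle, by -0.0038 ± 0.11 between the combination and vehicle, and by -0.31 ± 0.15 for the interaction, which asks whether the RU-486 difference changes when progesterone is present (limma adjusted p = 0.828). With vehicle replicate 1 left out the difference between RU-486 and vehicle was 0.066, and with vehicle replicate 2 left out it was 0.29. The interaction was then -0.19 and -0.42 in that order. ABCG2, which exports urate and many drugs, had a mean of 4.60 ± 0.12 (SD, n = 8), with 48.7% of the olfactory receptor genes below it.

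ABCG2 was at 4.61 and 4.46 with progesterone, 4.63 and 4.51 with RU-486, 4.78 and 4.42 with the combination and 4.70 and 4.67 with vehicle. The combination pair spanned all other arrays. For RU-486 present against absent the 95% interval of the fold was 0.847 to 1.14 for ABCG2 and 0.898 to 1.15 for ABCB1. RMA compresses differences of dim probe sets, so these intervals hold for the array signal.

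The CYP3A genes encode liver enzymes that oxidise a wide range of drugs, and PXR reaches them through an everted repeat near the start of transcription. The upstream sequences are shown because this motif lies upstream of CYP3A4, which mifepristone is known to induce through PXR in liver cells. They are the 250 bases before the RefSeq start (GRCh38.p14), 5′ to 3′ on the strand of the gene, with capitals at matches to the AhR core GCGTG, the half-sites AGGTCA and AGTTCA and the everted repeat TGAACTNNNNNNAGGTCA, each on both strands. The half-sites overlap the repeat that holds them. CYP1A1 and ABCC2 are shown for comparison, the first as the classical AhR target and the second as a bright PXR target.
CYP3A4, chr7:99784185-99784434, minus strand: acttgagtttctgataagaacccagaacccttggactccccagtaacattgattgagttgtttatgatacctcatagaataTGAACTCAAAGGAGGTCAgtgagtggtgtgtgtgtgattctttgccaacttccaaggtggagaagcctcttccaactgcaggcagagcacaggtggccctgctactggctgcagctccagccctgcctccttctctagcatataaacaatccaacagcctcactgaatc
CYP3A5, chr7:99679997-99680246, minus strand: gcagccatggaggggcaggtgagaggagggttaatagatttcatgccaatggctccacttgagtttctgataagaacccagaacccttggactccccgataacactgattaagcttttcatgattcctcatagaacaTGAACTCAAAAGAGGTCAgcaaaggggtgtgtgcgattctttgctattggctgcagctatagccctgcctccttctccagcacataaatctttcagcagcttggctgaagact
CYP1A1, chr15:74725529-74725778, minus strand: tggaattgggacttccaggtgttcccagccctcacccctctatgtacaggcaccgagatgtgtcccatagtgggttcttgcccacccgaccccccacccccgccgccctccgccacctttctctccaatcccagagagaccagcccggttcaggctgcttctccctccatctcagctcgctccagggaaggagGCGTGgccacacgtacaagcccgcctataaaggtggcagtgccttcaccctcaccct
ABCC2, chr10:99782390-99782639, plus strand: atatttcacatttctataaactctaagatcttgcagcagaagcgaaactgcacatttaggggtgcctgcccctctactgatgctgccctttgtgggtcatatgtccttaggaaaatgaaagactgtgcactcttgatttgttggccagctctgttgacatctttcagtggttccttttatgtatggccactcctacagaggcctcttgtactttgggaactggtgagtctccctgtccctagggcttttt

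The everted repeat was found upstream of CYP3A4 (bases -169 to -152 from the start) and of CYP3A5 (-113 to -96), and in 3 of 35116 windows of this length over all genes, the third being that of ITGB1BP2. The motif was searched because it lies upstream of CYP3A4, so that match was set in advance and its rarity tests nothing. Over 192 aligned bases the CYP3A4 and CYP3A5 windows were 84.4% identical. The AhR core, which 32.2% of all windows hold, was found at bases -57 to -53 of CYP1A1 and in windows of ABCB1 and ABCG2. Single half-sites lay in windows of ABCB1, ABCG2 and NR1I2, and the ABCC2 window held no match. Of the 10 genes listed, 7 had at least 1 window in this table. AGGTCA lay in 12.1% and AGTTCA in 8.80% of all windows. The longer AhR element TNGCGTG (4.52%) and the direct repeat AGTTCANNNAGTTCA (0 of 35116) were found in no window of the 7 genes. Bases farther upstream were not searched, so a missing match holds for these windows only.

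The CYP3A4 signal lay inside the background. The gene had a mean of 4.14 ± 0.29 (SD, n = 8), and 29.0% of the olfactory receptor genes lay below it. It was at 3.89 and 4.08 with progesterone, at 4.68 and 3.85 with RU-486, at 4.42 and 4.03 with the combination and at 4.20 and 3.96 with vehicle. The RU-486 pair held both the highest and the lowest of the 8 arrays. RU-486 differed from vehicle by 0.18 ± 0.27 (limma adjusted p = 1.00), with a 95% interval of 0.734 to 1.76-fold. Without RU-486 replicate 1 the difference was -0.24.

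CYP3A5, the family member found in many tissues outside the liver, varied least among the 9 genes, with 4.94 ± 0.06 (SD, n = 8) and 63.3% of the olfactory receptor genes below it. Its values were 4.92 and 4.96 with progesterone, 4.95 and 4.91 with RU-486, 5.05 and 4.92 with the combination and 4.84 and 4.99 with vehicle. The vehicle pair spanned every array but combination replicate 1. The 95% interval of its fold for RU-486 present against absent was 0.922 to 1.13. Since the CYP3A genes are near copies of each other, probes of one may also bind transcripts of another, which was not tested.

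CYP1A1, which oxidises aromatic hydrocarbons, was a dim gene with vehicle below all 3 steroid groups. It lay at 5.58 and 5.67 with progesterone, at 5.56 and 5.70 with RU-486, at 5.62 and 5.72 with the combination and at 5.31 and 5.44 with vehicle. All 6 treated arrays were above both vehicle arrays. The differences from vehicle were 0.25 ± 0.09 for progesterone (limma adjusted p = 0.741), 0.26 ± 0.09 for RU-486 (limma adjusted p = 1.00) and 0.29 ± 0.09 for the combination (limma adjusted p = 0.374). These 3 comparisons share the 2 vehicle arrays. How many of all genes had every treated array above both vehicle arrays was not counted. Marker levels summed per array had that order for the astrocyte and glioma, neuron, and microglia and leukocyte lists. They did not have it for the endothelial, oligodendrocyte, hepatocyte and enterocyte lists. All 8 CYP1A1 values were within the olfactory receptor range, with 83.6% of those genes below the mean of 5.58.

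CYP1B1, which acts on estradiol and on carcinogens and is raised in many tumours, did not show the order of CYP1A1. It was at 5.66 and 5.56 with progesterone, at 5.46 and 5.55 with RU-486, at 5.51 and 5.60 with the combination and at 5.37 and 5.69 with vehicle. The vehicle pair contained the other 6 arrays. RU-486 differed from vehicle by -0.024 ± 0.12, with a 95% interval of 0.811 to 1.19-fold.

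**Figure D3:**
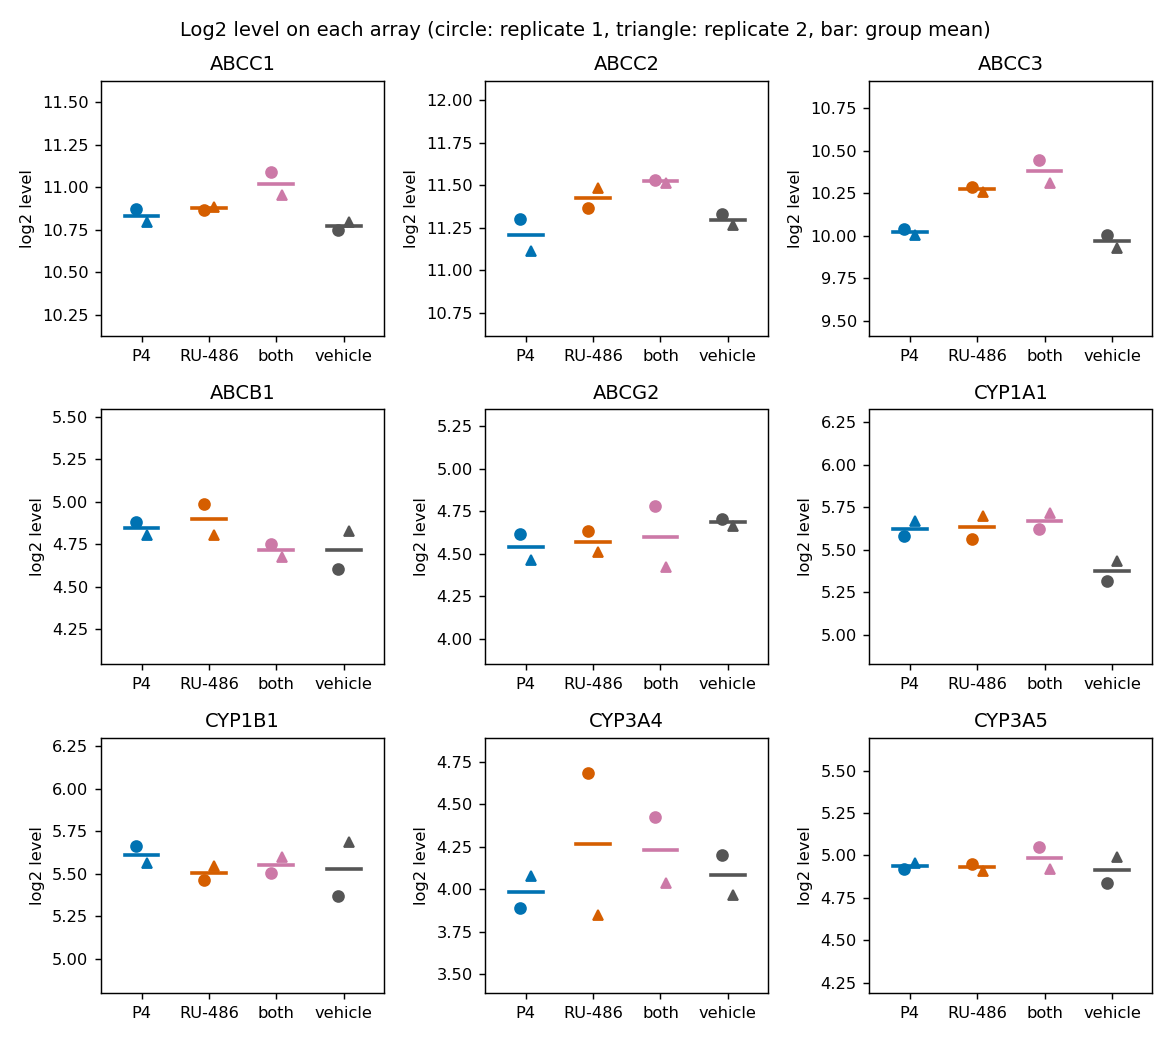
Each panel gives the log2 level of 1 gene on the 8 arrays (y axis, the same span of 1.5 units in all panels) by group (x axis; P4 is progesterone, both is the combination). Circles are replicate 1, triangles replicate 2 and bars group means; ABCC3 and ABCC2 are higher in both groups with RU-486, CYP1A1 is lowest with vehicle, and CYP3A4 is widest in the RU-486 pair.

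Counted over the 9 genes, 0 passed in limma in any of 7 tests at an adjusted p under 0.05. Of all genes, 0.0326% passed for RU-486 present against absent, 6 genes in number, and 0% in each of the other 6 tests. At an unadjusted p under 0.05, 3 of the 9 lay higher with RU-486 present than absent (ABCC1, ABCC2 and ABCC3), against 11.0% of all genes in either direction and 6.53% in this one. For the combination against vehicle 4 did (the same 3 and CYP1A1), against 13.2% in either direction and 1274 of 18417 genes higher. For RU-486 against vehicle 2 did (ABCC3 and CYP1A1), against 3.10% in either direction and 396 genes higher. For progesterone against vehicle 1 did (CYP1A1), against 6.13% in either direction and 678 genes higher. For progesterone present against absent there were 0, against 5.03%, for the interaction 0, against 5.28%, and for the F test over the 4 groups 2 (ABCC2 and ABCC3), against 7.63%. The 9 genes were chosen with earlier results of these data known, so the shares of all genes are not an unbiased comparison for them.

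Counts of groups that do not overlap are read against the same background. With RU-486 present, 2 of the 9 genes, ABCC2 and ABCC3, lay wholly above the arrays without it, compared with 4.51% of all genes. Wholly above vehicle lay 4 genes with RU-486 (24.0% of all genes), 3 with progesterone (16.3%) and 4 with the combination (42.7%). Margins with progesterone were small for 2 of these: the lower progesterone array and higher vehicle array were at 10.7930 and 10.7929 for ABCC1. For ABCC3 they were at 10.007 and 10.004. Wholly below vehicle lay ABCG2 with RU-486 (15.7% of all genes) and with progesterone (15.8%), and 0 of the 9 genes with the combination (18.8%). The mean was higher with RU-486 present in 7 of 9 genes, against 62.5% of all genes, and the median difference was 0.15 for the 9 and 0.03 for all genes. The combination had a higher mean than vehicle in 7 of 9, against 67.5%, with medians of 0.15 and 0.07.

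**Figure D4:**
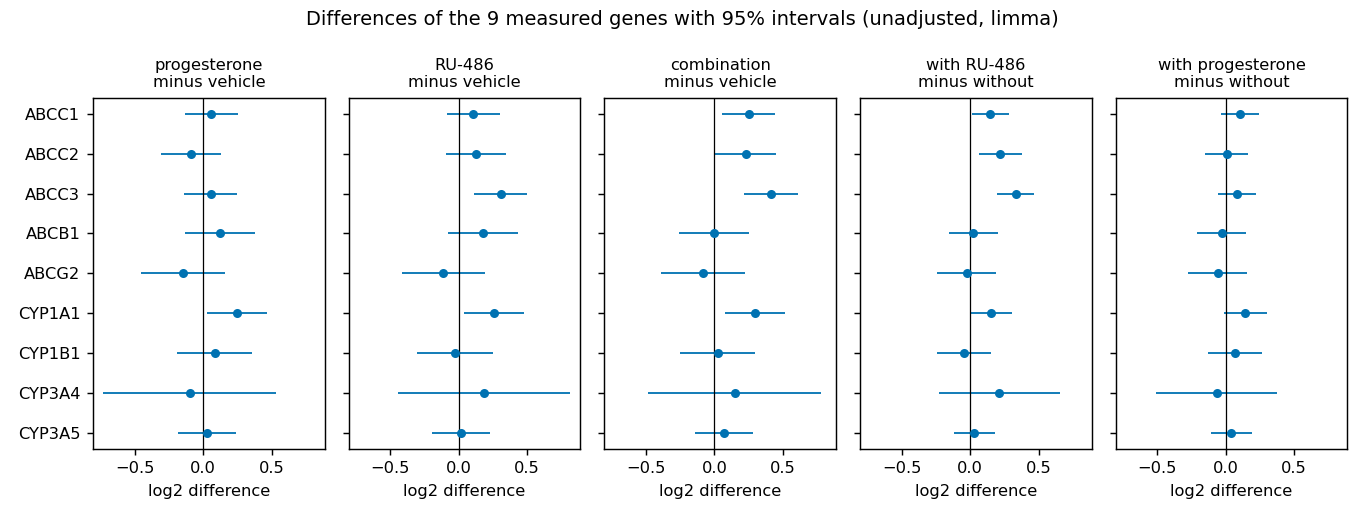
Points are limma log2 differences (x axis) of the 9 measured genes (rows) in 5 comparisons (panels), with lines for unadjusted 95% intervals. For RU-486 present minus absent the intervals of ABCC1, ABCC2 and ABCC3 lie above 0, and for each steroid treatment minus vehicle so does that of CYP1A1; CYP3A4 has the widest intervals.

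Genes of the same pathways were grouped by role. Of 15 sensors, partners and coactivators 11 were measured, and 0 passed in limma in any comparison; for RU-486 present against absent, 1 of the 11, NCOA2, was lower at an unadjusted p under 0.05, against 4.49% of all genes. AHR itself was dim, with a mean of 5.12 ± 0.17 (SD, n = 8) and 70.1% of the olfactory receptor genes below it, whereas its partner ARNT was at 10.71. AHR stood at 5.03 and 5.06 with RU-486 and at 5.08 and 5.31 with vehicle, a difference of -0.15 ± 0.15. RXRA, the partner of PXR, was at 10.43 and differed by 0.07 ± 0.06 for RU-486 present against absent. NR1I3, the gene of the related sensor CAR, was at 4.89, inside the background. The coactivators NCOA2 and PPARGC1A were lower with the combination than with vehicle by -0.53 ± 0.18 and -0.54 ± 0.21 (limma adjusted p = 0.374 each, not passed). PTGES3, a cochaperone of steroid receptors and AhR, had an interaction of 0.44 ± 0.15 (limma adjusted p = 0.828).

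Of 10 AhR targets 7 were measured and 0 passed in limma, nor did any reach an unadjusted p under 0.05 for RU-486 present against absent. NQO1, a quinone reductase, was bright, at 13.09, and differed by 0.11 ± 0.05 for RU-486 present against absent (limma adjusted p = 0.462). TIPARP, an ADP-ribosyltransferase that restrains AhR, differed by -0.16 ± 0.10 between progesterone and vehicle. CYP1A2, which oxidises caffeine and aromatic amines in the liver, differed by 0.15 ± 0.09 between RU-486 and vehicle and by 0.12 ± 0.09 between progesterone and vehicle, at a mean of 6.48. NFE2L2, which encodes NRF2, a transcription factor of the oxidant response, was at -0.42 ± 0.17 for the combination against vehicle (limma adjusted p = 0.374). AHRR was not analysed here, because its probe set pairs with a second gene.

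Of 21 PXR and CAR targets 15 were measured, 5 of them above the background, and 0 passed in limma, with 3 higher at an unadjusted p under 0.05 for RU-486 present against absent, against 6.53% of all genes; these 3 include ABCC2 and ABCC3. For RU-486 present against absent 12 of 15 had a higher mean, against 62.5% of all genes, with a median of 0.06 against 0.03. ALAS1, the first enzyme of haem synthesis, differed by 0.19 ± 0.07 (limma adjusted p = 0.430) and POR, the electron donor of microsomal P450 enzymes, by 0.13 ± 0.06 (limma adjusted p = 0.465). CES2, a carboxylesterase that activates prodrugs, was at 9.52 and 9.47 with the combination, against 9.27 and 9.27 with vehicle, a difference of 0.23 ± 0.09 (limma adjusted p = 0.374). CYP2B6, a target of CAR and PXR, was at 4.72 and 4.49 with progesterone, against 4.06 and 4.02 with vehicle (0.56 ± 0.18, limma adjusted p = 0.741), with 35.2% of the olfactory receptor genes below its mean.

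Of 16 ABC exporters 15 were measured, 9 of them above the background, and 0 passed in limma, with 4 higher at an unadjusted p under 0.05 for RU-486 present against absent, where 6.53% of all genes were; these 4 include ABCC1, ABCC2 and ABCC3. In that comparison 12 of 15 had a higher mean, against 62.5% of all genes, with a median of 0.08 against 0.03. Beside the ABCC genes already described, ABCA3, a lipid transporter of lung surfactant that also sequesters drugs, differed by 0.23 ± 0.07 (limma adjusted p = 0.424) and ABCA2, a lysosomal lipid transporter of the brain, by 0.13 ± 0.06 (limma adjusted p = 0.453). ABCC5, an exporter of cyclic nucleotides, differed by -0.10 ± 0.08 between RU-486 and vehicle. ABCC12 was at 0.41 ± 0.15 for progesterone against vehicle, at a dim mean of 5.09.

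Of 22 SLC uptake transporters 20 were measured, 10 above the background, and 0 passed in limma. For RU-486 present against absent they were split 10 to 10, against 62.5% of all genes higher, with a median of 0.0047 against 0.03 and 0 at an unadjusted p under 0.05. SLC22A5, the carnitine transporter, had an interaction of 0.33 ± 0.11 (limma adjusted p = 0.828), and SLC29A2, a nucleoside transporter, was at 0.23 ± 0.10 for the combination against vehicle (limma adjusted p = 0.384). Of 26 conjugating and hydrolysing enzymes 23 were measured, 17 above the background, and 0 passed in limma. With RU-486 present 18 of 23 means were higher, against 62.5% of all genes, and 4 of the 23 were higher at an unadjusted p under 0.05, against 6.53%. The median was 0.08, against 0.03 for all genes. GSTM2, a glutathione transferase, was higher with the combination by 0.29 ± 0.07 and TPMT, which methylates thiopurine drugs, was at -0.33 ± 0.10 (limma adjusted p = 0.374 each). EPHX1, the microsomal epoxide hydrolase, was bright, at 12.19, and differed by 0.14 ± 0.06 for RU-486 present against absent (limma adjusted p = 0.441). UGT2B7, a steroid and drug glucuronosyltransferase of liver, had the interaction with the smallest p in this list, 0.99 ± 0.22 (limma adjusted p = 0.828), with only 6.74% of the olfactory receptor genes below its mean of 3.39.

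**Figure D5:**
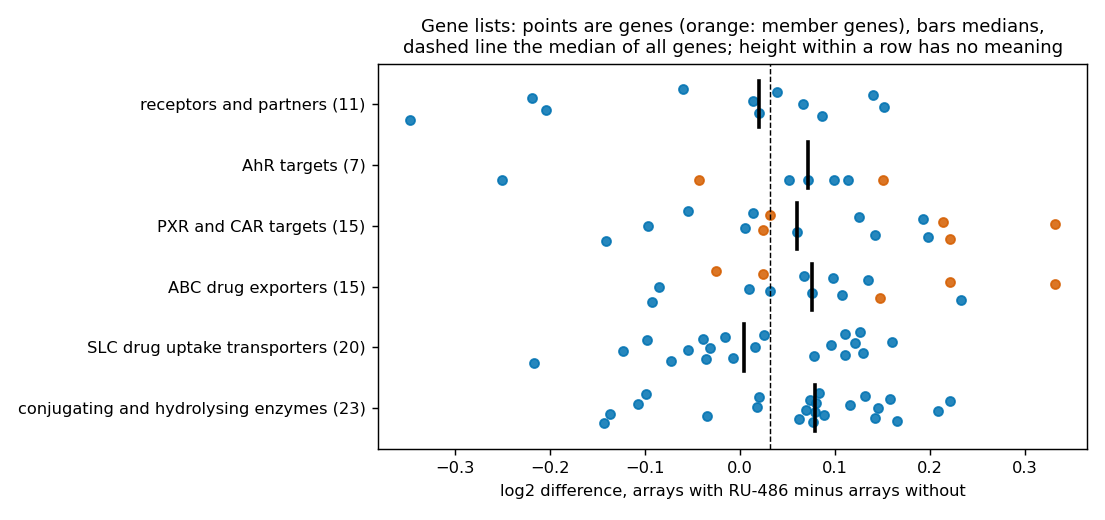
Each point is 1 measured gene of a pathway list (rows, number measured in brackets), placed by its log2 difference between arrays with and without RU-486 (x axis). Orange points are genes of the 10-gene list, some of which are in several pathway lists, black bars are list medians and the dashed line is the median of all genes, 0.03; ABCC3, at 0.33, is the point farthest right in both lists that hold it.

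The genes most like ABCC3 over the 8 arrays, by Pearson correlation as a description, were HEY1 (0.994), XBP1 (0.976), BOC (0.972), SLC7A5 (0.971) and EIF4EBP1 (0.970). HEY1 is a transcription factor induced by Notch, XBP1 one of the unfolded protein response, BOC a co-receptor of Hedgehog, SLC7A5 a carrier of large neutral amino acids and EIF4EBP1 a repressor of translation. For RU-486 present against absent they differed by 0.45, 0.30, 0.31, 0.36 and 0.43 in that order, without passing (limma adjusted p between 0.155 and 0.263). The genes most like ABCC2 were EIF3G (0.991), MKNK2 (0.987), LTAP1 (0.986), TMEM18 (0.985) and KLHDC10 (0.984). In that order they differed by 0.11, 0.34, 0.15, 0.26 and 0.07 for RU-486 present against absent. None passed (limma adjusted p between 0.385 and 0.615). All these values rest on the same 8 arrays and on 18416 other genes to choose from. Both ABCC3 and ABCC2 separate these arrays by RU-486. Genes chosen for following them therefore differ with RU-486 in part through the choice itself.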

How the data were processed

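The deposited values are log2 expression signals of 33297 probe sets on each of 8 arrays, with array medians between 6.93 and 7.02. The tools named per the submitters' processing notes are limma, oligo and RMA, and their versions and settings are not given in the sources used here. RMA is a method that subtracts background, makes array distributions equal and combines probes, and so it removes shifts shared by most genes and compresses differences of dim ones. Scan dates and batches are not given in the sources used here.

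Symbols came from the platform annotation, with 1 for 19460 probe sets, several for 1754 and none listed for 12083. The one-symbol probe set with the highest mean was kept per gene, which left 18417 genes with no filter on dim ones. Groups and replicate numbers come from the titles. The model was a fit of 4 group means (limma 3.58.1, R 4.3.3), with 4 residual degrees of freedom, tested on simulated data, and adjusted by Benjamini-Hochberg over all genes within a comparison. The simulated arrays were independent and had equal spread in all groups. The wider progesterone pair and the correlation of same-numbered arrays were therefore not covered. Planted differences were larger than those of ABCC1, ABCC2 and ABCC3 for RU-486 present against absent. Passing required their size and sign to be recovered and set no limit on false calls. A call is an adjusted p under 0.05. Intervals use the moderated SE and cover the spread between arrays only, whose number limits precision.

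The genes and the lists were chosen with earlier results of these data known. Named list genes are, per list and comparison, the 2 with the smallest p whose compared arrays do not overlap (for the interaction, where overlap is not defined, the 2 with the smallest p), plus NR1I3, RXRA, AHR and ARNT, and not all of them are printed. Genes most like a member are the 5 with the highest correlation for the 2 bright members with the smallest F test p. Motifs were searched in RefSeq promoters. Alternatives were the replicate block, each array left out, quantile normalization, the mean of probe sets, a filter at the olfactory background, eBayes with trend and robust, arrayWeights, and, added after seeing the data, leaving out both progesterone arrays.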

Additional observations from a re-analysis of the deposited data

How the results depend on the processing

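The array signal of 6 of the 9 genes lay inside the background, so a low level of those transcripts could not be told from none, and 2 arrays a group limit every comparison. For ABCC2 and ABCC3 every array with RU-486 lay above every array without it, so leaving out an array could not reverse that difference. The ABCC3 difference stayed at 0.33 with the replicate block, mean of probe sets, background filter, eBayes with trend and robust and arrayWeights. These settings keep the group means, so they could not move it or turn its sign. Quantile normalization gave 0.32. With these limits, ABCC1, ABCC2 and ABCC3 kept the sign of the RU-486 difference under every alternative run. Their limma adjusted p over these alternatives ran from 0.132 to 0.933 for ABCC1, from 0.0507 to 0.933 for ABCC2 and from 0.0408 to 0.933 for ABCC3. Members called for RU-486 present against absent were 0 to 1 with each array left out, the 1 being ABCC3 without progesterone replicate 1, and 0 in all other fits and comparisons.

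Counts of all genes moved more. With each array left out they ran from 0 to 998 for RU-486 present against absent, where 6 were called with all arrays, 998 without progesterone replicate 1, 7 without progesterone replicate 2, 1 without RU-486 replicate 1 and 0 without each of the other 5, and from 0 to 1228 for progesterone against vehicle, the highest without progesterone replicate 2. For RU-486 present against absent the count was 12 among the genes above the background and 43 by eBayes with trend and robust, which also gave 4 for the F test over the 4 groups. With arrayWeights it was 3 for RU-486 against vehicle and 7 for the combination against vehicle. The cause was not tested. The replicate block gave 1 gene for the combination against vehicle in place of 0, 6 for RU-486 present against absent and 0 in the other 5 tests, with no member called. Deviations of same-numbered arrays correlated at 0.197 to 0.511 over the 6 pairs of groups, but there are only 2 numbers and the labels name nothing that they share. Without both progesterone arrays, 0 genes were called for RU-486 and for the combination against vehicle.

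Against 100 taste receptor, keratin-associated and vomeronasal genes in place of olfactory receptors, the share below was 25.0% for ABCB1, 21.0% for ABCG2, 12.0% for CYP3A4, 29.0% for CYP3A5, 43.0% for CYP1A1 and 41.0% for CYP1B1, and it was 100% for the 3 bright exporters. The cause was not tested.

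Of 738 refitted differences of the 9 genes, 49 had the other sign, 44 of them with an array left out, and no call was involved. Many of the 738 could not change. The replicate block, mean of probe sets, background filter, eBayes with trend and robust and arrayWeights keep the group means of these genes. Leaving out arrays outside a comparison with vehicle also keeps its difference. So 49 of 738 is not the share among fits able to turn a sign. Without 1 array the ranges were as follows. RU-486 against vehicle gave -0.24 to 0.60 for CYP3A4, -0.059 to 0.10 for CYP3A5 and -0.18 to 0.13 for CYP1B1. Progesterone against vehicle gave -0.18 to 0.0028 for ABCC2, -0.22 to 0.021 for CYP3A4, -0.050 to 0.10 for CYP3A5 and -0.075 to 0.24 for CYP1B1. The combination against vehicle gave -0.12 to 0.11 for ABCB1, -0.26 to 0.095 for ABCG2, -0.048 to 0.34 for CYP3A4, -0.0051 to 0.15 for CYP3A5 and -0.14 to 0.18 for CYP1B1. RU-486 present against absent gave -0.031 to 0.081 for ABCB1, -0.11 to 0.064 for ABCG2, -0.0068 to 0.070 for CYP3A5 and -0.12 to 0.037 for CYP1B1. Progesterone present against absent gave -0.085 to 0.027 for ABCB1, -0.041 to 0.052 for ABCC2, -0.15 to 0.031 for ABCG2, -0.28 to 0.14 for CYP3A4 and -0.014 to 0.14 for CYP1B1. The interaction gave -0.018 to 0.12 for ABCC3, -0.0035 to 0.35 for ABCG2, -0.36 to 0.48 for CYP3A4, -0.050 to 0.10 for CYP3A5 and -0.19 to 0.12 for CYP1B1. Quantile normalization gave -0.013 for CYP3A5 with RU-486 against vehicle, -0.017 for CYP3A5 with progesterone against vehicle, -0.017 for CYP1B1 with the combination against vehicle, and interactions of -1.02e-05 for ABCC3 and 0.022 for CYP1B1.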
